A study of Mus musculus with 9 samples.

Results

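BV2 is an immortalized murine microglial cell line. RNA of these cells was measured as FPKM (fragments scaled to the length of the transcript and to the mapped fragments of the library) after 12 h without particles (non-treated control) or with 10 or 100 µg/ml MNPs@SiO2(RITC), magnetic nanoparticles coated with silica that carries the dye rhodamine B isothiocyanate. Each condition had 3 libraries, and the labels write the doses as 0.01 and 0.1 µg/µl. The genes described here are 54 lysosomal hydrolases, lumenal cofactors, membrane proteins, transcription factors of lysosomal genes and subunits of the vacuolar proton pump, taken by gene name from a list that was drawn up with earlier results of these data known. Of these, 53 were among the 40993 genes of the deposited table, and the arylsulfatase Galns was not analysed here. All groups share the BV2 line, which is a transformed line and not primary microglia, and the sources used here do not state whether the libraries came from separate cultures, so p-values measure the spread between libraries, which may be technical.

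The lysosome is the compartment in which a cell degrades material that it has engulfed, particles taken up by endocytosis included. A proton pump, the V-ATPase, keeps its lumen acidic: the V1 sector outside the membrane splits ATP and drives protons through the V0 sector within it. Acid hydrolases, among them the cathepsin proteases, then work at that pH, while heavily glycosylated membrane proteins such as LAMP1 line the inner face of the membrane, and the transcription factors TFEB, TFE3 and MITF bind the promoters of many lysosomal genes. Microglia, the macrophages of the brain, hold many lysosomes. In bulk RNA, fewer cells of a type and less RNA per cell cannot be told apart.

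Most of the lysosomal genes were abundant. Ctsd, the aspartic protease cathepsin D, had the highest mean FPKM of the 53, 1646 over the 9 libraries, and ranked 12 among the 11161 genes tested, those whose mean reached 1 FPKM. Psap, the precursor of the saposins that present lipids to hydrolases, ranked 15 with a mean of 1319 FPKM. The cysteine protease Ctsb ranked 22 with 1166 FPKM, and Lamp1 ranked 124 with 421 FPKM, so both genes that mark the lysosome, Lamp1 and Ctsd, were high in every library. At the other end, the heparan sulfatase Sgsh had a mean of 1.51 FPKM. In the V0 sector of the pump, subunit d came almost wholly from Atp6v0d1, at 96.0 FPKM, against 2.14 FPKM for its paralog Atp6v0d2. The iduronate sulfatase Ids lay between 0.12 and 0.29 FPKM in the 9 libraries, was under the filter and was not tested, which left 52 genes.

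**Figure D1:**
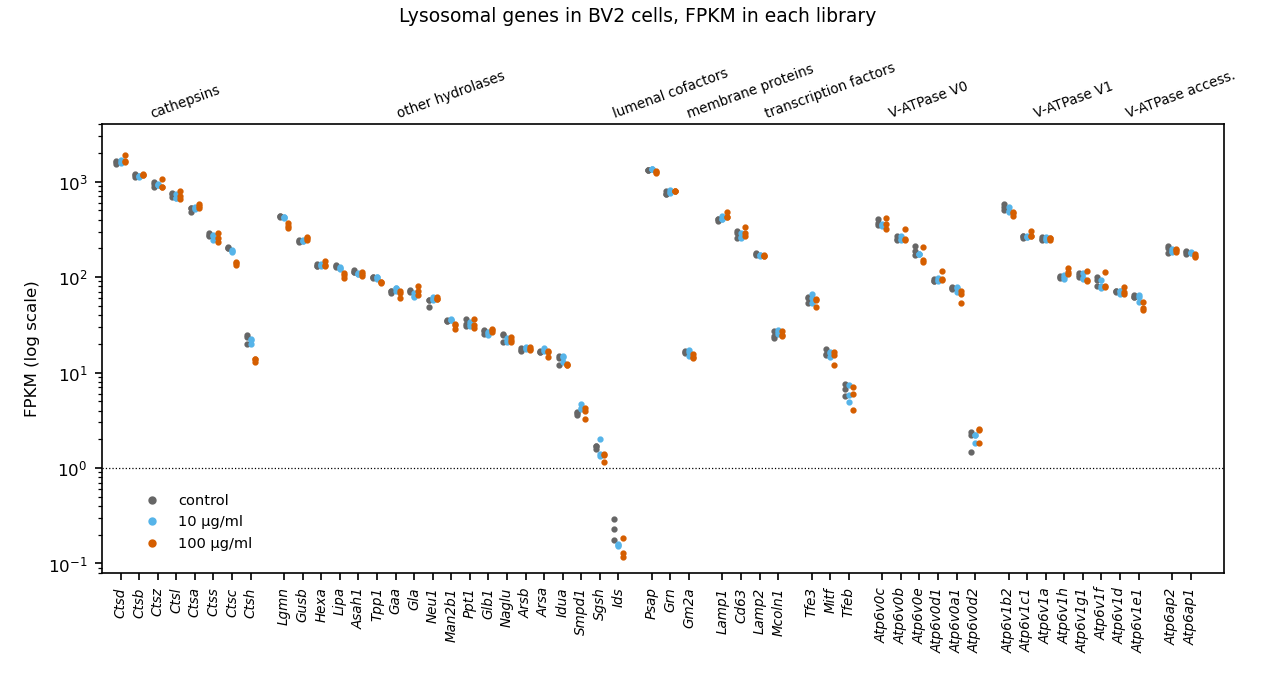
FPKM of the 53 lysosomal genes on a logarithmic axis, grouped by class, with 1 point for each library of control cells and of cells at 10 and 100 µg/ml. The dotted line marks the filter at 1 FPKM, under which Ids lies, and Ctsd, Psap and Ctsb stand above 1000 FPKM in all 9 libraries.

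The summed FPKM of the lysosomal genes was 13125, 13099 and 12573 in control replicates 1 to 3. At 10 µg/ml it was 12639, 12678 and 13032, and at 100 µg/ml 13649, 12305 and 12390. The groups overlapped, and replicate 1 at 100 µg/ml stood above all the other libraries, but its whole FPKM was also the largest. As a share of the FPKM of each library the sum was 2.52%, 2.52% and 2.63% in control replicates 1 to 3, 2.63%, 2.65% and 2.65% at 10 µg/ml, and 2.61%, 2.58% and 2.62% at 100 µg/ml, and on that scale replicate 1 at 100 µg/ml did not stand apart. Replicate 1 at 100 µg/ml had the highest of the 3 values of its group for 33 of the 52 genes tested, against 45.5% of all genes tested, so several results are also given without it. The FPKM of a whole library summed to between 473547 and 522812. These sums hold 9 genes that were missing from part of the libraries yet exceeded 1000 FPKM elsewhere. Leaving them out lowers the sums of control replicates 1 and 2 from 519840 and 519600 to 504332 and 493415. That of replicate 1 at 100 µg/ml goes from 522812 to 512937, and the other libraries change less or not at all. The low shares of control replicates 1 and 2 thus depend on these genes. Read depth cannot be read from FPKM. From the steps between low values, assuming fragments of 200 bases, the depth of a library came to between 13.3 and 16.15 M (mega) fragments. These depths are approximate, since 68.2% to 76.2% of low values came within 0.25 of a whole number of fragments. At a depth fixed beforehand 50% would do so by chance. Each depth was picked from a preset range to bring these same values near whole numbers, so the share expected by chance is higher.

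The promoters of 45 of the 54 genes were in the RefSeq table (GRCm38.p6), as windows from 250 bases before to 50 bases after a start of the gene. Of the 45 genes, 38 have 1 window and 7 have more, up to 3, and a gene was counted as holding a motif where any of its windows does, so genes with more windows had more sequence to match. TFEB, TFE3 and MITF are known to bind the E-box CACGTG, which reads the same on both strands and is the core of the CLEAR element of lysosomal genes. CACGTG occurred in the windows of 16 of the 45 genes (35.6%), against 12.6% of the 7814 tested genes that have a window and 8.09% of all 27025 genes with one. By class it was found in 3 of 6 cathepsins, 7 of 18 other hydrolases, 2 of 4 membrane proteins, 3 of 5 V0 subunits and 1 of 4 V1 subunits. It was in 0 of 3 lumenal cofactors, 0 of 3 transcription factors and 0 of 2 accessory subunits of the V-ATPase. The longer form TCACGTGA, which contains CACGTG, occurred in 7 genes (15.6%, against 2.5% of tested genes), namely Ctsa, Ctsd, Gla, Mcoln1, Atp6v0d1, Atp6v0e and Atp6v1a. The windows of 5 genes are printed 5′ to 3′ on the strand of the gene, with CACGTG in capitals. Those of Lamp1 (chr8:13158911-13159210, plus strand) and Ctsd (chr7:142387778-142388077, minus strand) are shown because these genes mark the lysosome, and those of Ctsc (chr7:88277835-88278134, plus strand), Lipa (chr19:34527425-34527724, minus strand) and Lgmn (window 1, chr12:102439679-102439978, and window 2, chr12:102439043-102439342, minus strand) because these genes fell at 100 µg/ml. Ctsh, which also fell, was not among the 45.
Lamp1: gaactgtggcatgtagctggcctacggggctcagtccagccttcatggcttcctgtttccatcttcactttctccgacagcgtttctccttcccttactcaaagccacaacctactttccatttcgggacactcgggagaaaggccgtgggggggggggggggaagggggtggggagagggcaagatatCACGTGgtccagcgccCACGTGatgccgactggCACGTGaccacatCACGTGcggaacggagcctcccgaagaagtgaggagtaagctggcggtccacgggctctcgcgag
Ctsd: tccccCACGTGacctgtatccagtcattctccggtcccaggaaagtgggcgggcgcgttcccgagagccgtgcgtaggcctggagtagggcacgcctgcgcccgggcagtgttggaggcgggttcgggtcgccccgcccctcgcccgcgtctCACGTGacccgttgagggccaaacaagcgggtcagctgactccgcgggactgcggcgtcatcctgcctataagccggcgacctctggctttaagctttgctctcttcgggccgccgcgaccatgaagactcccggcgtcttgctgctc
Ctsc: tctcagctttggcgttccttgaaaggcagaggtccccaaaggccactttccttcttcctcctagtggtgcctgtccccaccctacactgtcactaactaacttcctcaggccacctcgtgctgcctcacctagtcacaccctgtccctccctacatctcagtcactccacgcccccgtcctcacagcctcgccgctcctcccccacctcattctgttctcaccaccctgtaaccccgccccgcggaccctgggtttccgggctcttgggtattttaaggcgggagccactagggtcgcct
Lipa: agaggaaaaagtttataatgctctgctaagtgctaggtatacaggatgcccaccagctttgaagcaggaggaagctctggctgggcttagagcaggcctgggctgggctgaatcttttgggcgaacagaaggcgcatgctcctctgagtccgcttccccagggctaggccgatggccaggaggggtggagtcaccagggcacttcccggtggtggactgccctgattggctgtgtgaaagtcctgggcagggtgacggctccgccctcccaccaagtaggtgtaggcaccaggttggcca
Lgmn window 1: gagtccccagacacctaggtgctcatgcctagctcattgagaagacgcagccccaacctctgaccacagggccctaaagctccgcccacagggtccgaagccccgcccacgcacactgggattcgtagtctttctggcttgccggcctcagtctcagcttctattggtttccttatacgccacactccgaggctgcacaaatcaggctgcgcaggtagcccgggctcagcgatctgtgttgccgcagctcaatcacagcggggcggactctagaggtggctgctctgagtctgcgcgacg
Lgmn window 2: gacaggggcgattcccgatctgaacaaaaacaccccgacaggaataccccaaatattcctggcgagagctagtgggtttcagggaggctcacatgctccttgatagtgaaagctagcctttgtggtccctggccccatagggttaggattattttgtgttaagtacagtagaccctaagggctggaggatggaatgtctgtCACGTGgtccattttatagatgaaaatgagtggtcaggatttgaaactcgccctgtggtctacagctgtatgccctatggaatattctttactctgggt
The Lamp1 window holds CACGTG 4 times and that of Ctsd 2 times. Of the genes that fell, Lgmn has it 1 time in window 2 and 0 times in window 1, and Ctsc and Lipa have it 0 times. A match describes letters only and shows no binding.

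The first comparison asked which lysosomal genes differed between cells at 100 µg/ml and control cells. A total of 4 hydrolase genes fell, the cathepsins Ctsc and Ctsh, the asparaginyl endopeptidase Lgmn and the acid lipase Lipa, which were lower by 19.6% to 40.3% of mean FPKM, and no lysosomal gene rose. No transcription factor, membrane protein, lumenal cofactor or V-ATPase subunit passed the test. Differences are given on the scale of log2(FPKM + 1) and were tested with limma on all 9 libraries together, with p-values adjusted over all 11161 genes by the Benjamini-Hochberg method. On this scale changes of genes with low FPKM are understated. The 4 genes are 7.69% of the 52 tested, where 1.41% of all genes tested were lower, 0.708% higher and 2.11% changed in either direction. At an unadjusted p under 0.05, 11 lysosomal genes differed (21.2%, against 19.4% of all genes tested), 2 higher (3.85%, against 9.67%) and 9 lower (17.3%, against 9.69%). The libraries of the 2 groups did not overlap for 19 of the 52 genes (36.5%, against 23.8%). For 14 of them (26.9% of 52, against 11.4%) every library at 100 µg/ml lay below every control library, and for 5 (9.62%, against 12.5%) every one lay above. The median difference was -0.05 over the 52 genes, with 20 above 0 and 32 below, and -0.0016 over all genes tested. Under quantile normalization it was -0.02, with 25 above and 27 below, and 0.01 over all genes. Turned back into FPKM, the 95% interval of the difference lay within a 1.5-fold change in either direction for 45 of the 48 genes that did not pass the test, and the exceptions were Tfeb, Sgsh and Atp6v0d2. For 14 of these 48 genes the sign of the difference changed when 1 of the 3 libraries at 100 µg/ml was left out. Of the 14, 7 did so without replicate 1, and the differences of these 14 genes carry no direction.

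**Figure D2:**
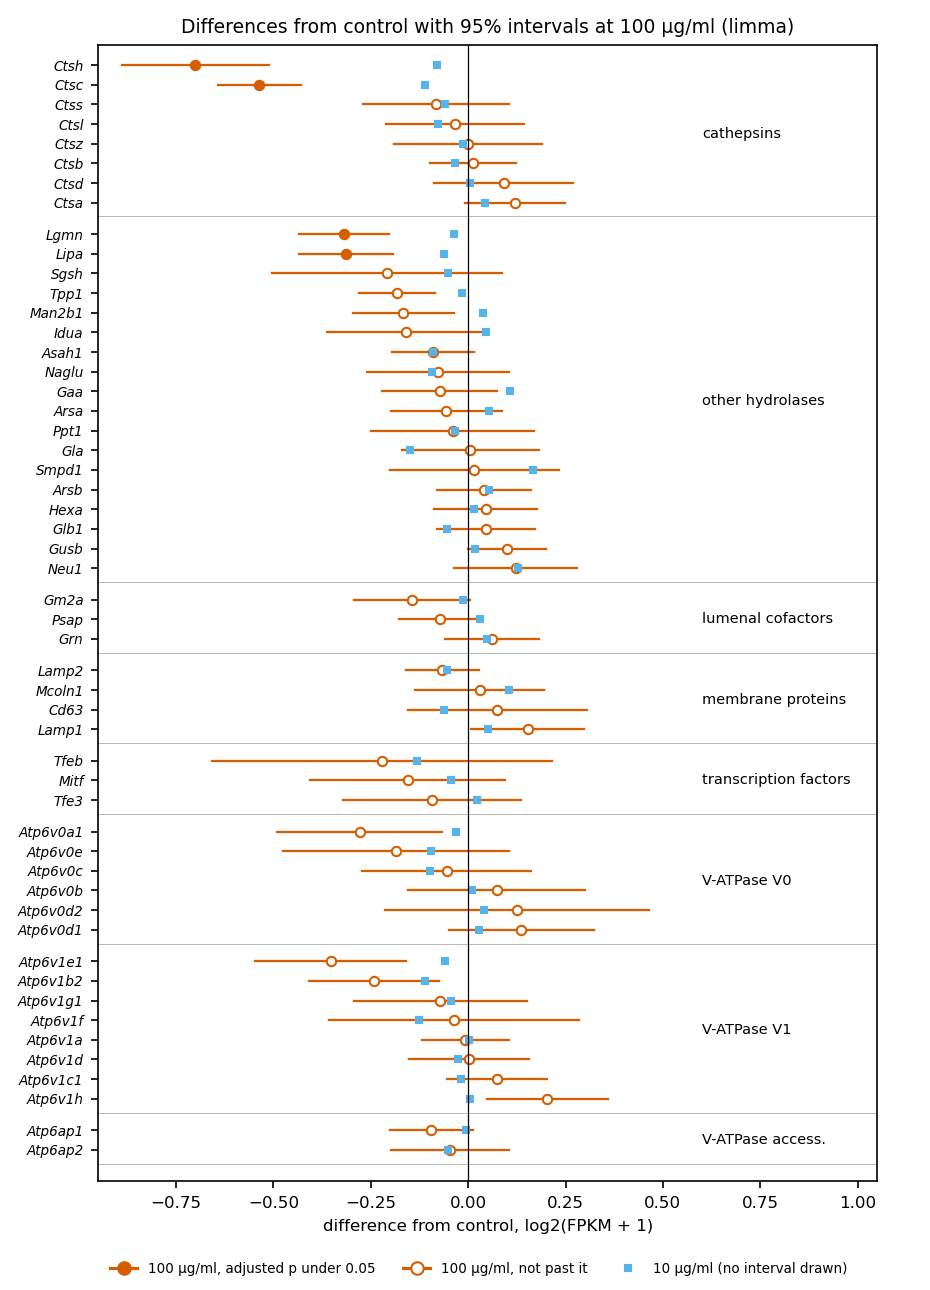
Difference from control on the log2(FPKM + 1) scale (horizontal axis) for the 52 genes tested, grouped by class, with circles and 95% intervals from limma at 100 µg/ml and squares at 10 µg/ml. The 4 filled circles, Ctsh, Ctsc, Lgmn and Lipa, are the genes with an adjusted p under 0.05, and their squares at 10 µg/ml lie between 0 and the circles.

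Among the 8 cathepsins, 2 fell and 0 rose. Ctsc encodes dipeptidyl peptidase I, which trims the ends of serine proteases of immune cells and so activates them (ENSMUSG00000030560, chromosome 7 of GRCm38 from 88278085 to 88310888). Its FPKM was 205, 202 and 199 in control replicates 1 to 3, 189, 183 and 190 at 10 µg/ml, and 143, 133 and 142 at 100 µg/ml. The 3 groups did not overlap, and every library at 100 µg/ml lay well below those at 10 µg/ml. Mean FPKM fell by 31.2% at 100 µg/ml, a difference of -0.54 (SE 0.05, adjusted p = 0.00224 from limma), and this call held in all 20 alternatives. Ctsh encodes an aminopeptidase of the papain family (ENSMUSG00000032359, chromosome 9 from 90054152 to 90076089). Its FPKM was 20.04, 24.5 and 23.7 in control libraries, 22.2, 19.9 and 22.1 at 10 µg/ml, and 13.9, 13.9 and 12.8 at 100 µg/ml. Control and 10 µg/ml libraries overlapped, and all 3 at 100 µg/ml were lower. Mean FPKM of Ctsh fell by 40.3%, a difference of -0.70 (SE 0.08, adjusted p = 0.00765 from limma), the largest of the 52 genes, and it passed the test in 19 of 20 alternatives, with an adjusted p of 0.061 when only the 6 libraries compared were fitted.

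The other 6 cathepsins, each with a higher mean FPKM than Ctsc or Ctsh, had differences between -0.08 for Ctss and 0.12 for Ctsa, and none passed the test. Without replicate 1 at 100 µg/ml the difference was -0.17 for Ctss, -0.10 for Ctsz (-0.00017 with all libraries) and -0.10 for Ctsl (-0.03 with all libraries), and without replicate 2 it was -0.01 for Ctss. Ctsd (ENSMUSG00000007891, chromosome 7 from 142371148 to 142388038) was at 1626, 1648 and 1549 FPKM in control libraries, 1550, 1591 and 1697 at 10 µg/ml, and 1922, 1599 and 1635 at 100 µg/ml. Its groups overlapped, and only replicate 1 at 100 µg/ml stood apart. The difference of Ctsd was 0.09 (SE 0.08, adjusted p = 0.571 from limma), 0.0089 without that replicate and 0.26 under quantile normalization. The serine carboxypeptidase Ctsa, which also protects neuraminidase and beta-galactosidase, had all 3 libraries at 100 µg/ml (534 to 585 FPKM) above all 3 control libraries (484 to 529 FPKM), with an adjusted p of 0.288 from limma. Over all 8 cathepsins, of which Ctsd, Ctsb, Ctsz and Ctsl make up most, the FPKM summed to 5471 ± 169 for control and 5538 ± 431 for 100 µg/ml (mean ± SD, n = 3 each), so the sum did not show the fall of Ctsc and Ctsh.

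**Figure D3:**
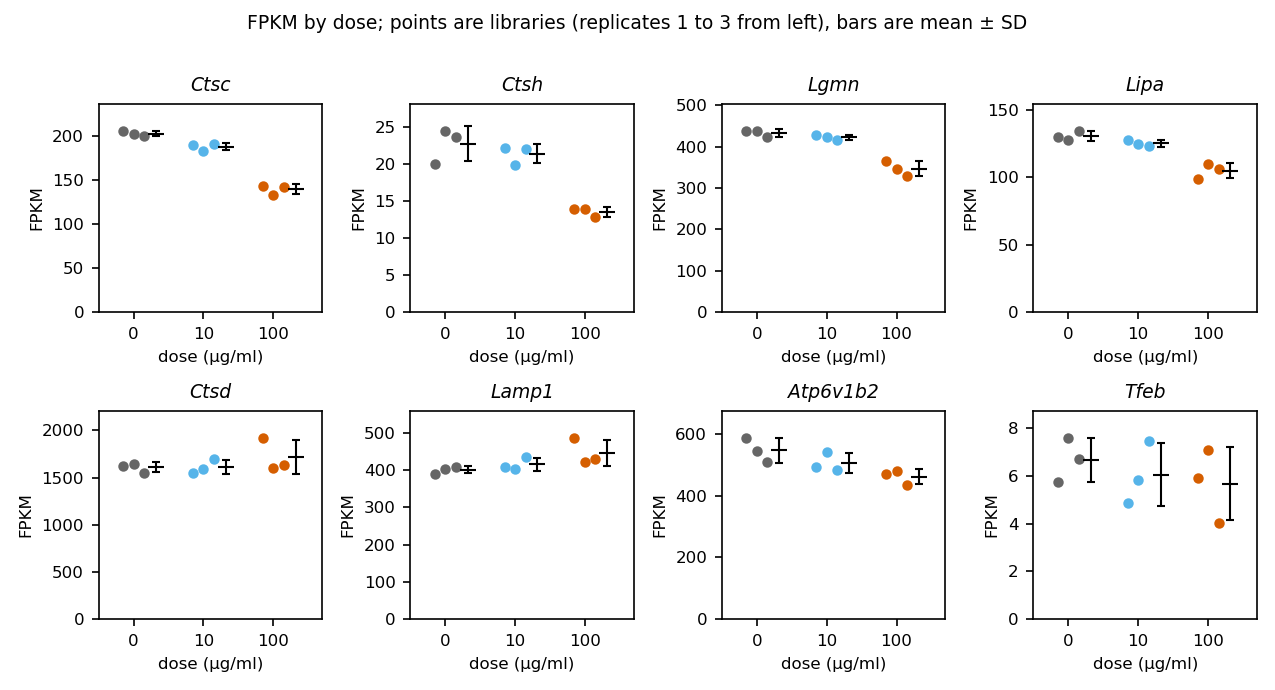
FPKM (vertical axes, from 0) against dose (0, 10 and 100 µg/ml) for 8 lysosomal genes, with 1 point for each library and the mean ± SD of 3 libraries to its right. Ctsc, Ctsh, Lgmn and Lipa are lower in all 3 libraries at 100 µg/ml, replicate 1 at 100 µg/ml is the highest point of Ctsd and of Lamp1, and the points of Tfeb overlap between groups.

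Of the 18 other hydrolases tested, 2 fell and 0 rose. Legumain, the product of Lgmn, cuts after asparagine and processes several cathepsins (ENSMUSG00000021190, chromosome 12 from 102394084 to 102439813). Its FPKM was 438, 438 and 422 in control libraries, 428, 422 and 416 at 10 µg/ml, and 365, 346 and 330 at 100 µg/ml. Only the libraries at 100 µg/ml were set apart, and mean FPKM fell by 19.8%, a difference of -0.32 (SE 0.05, adjusted p = 0.0191 from limma). The acid lipase encoded by Lipa hydrolyses cholesteryl esters and triglycerides (ENSMUSG00000024781, chromosome 19 from 34492318 to 34527474). Its FPKM was 130, 128 and 134 in control libraries, 128, 125 and 123.0 at 10 µg/ml, and 98.6, 110 and 106 at 100 µg/ml. All 3 libraries at 100 µg/ml lay below the other 6, and mean FPKM of Lipa fell by 19.6%, a difference of -0.31 (SE 0.05, adjusted p = 0.0215 from limma). Both calls were lost without some single libraries: Lgmn lost its call without any 1 of the 3 control replicates, replicate 2 or replicate 3 at 100 µg/ml (adjusted p = 0.0527 to 0.0993), and Lipa without any 1 of the control replicates or replicate 3 at 100 µg/ml (adjusted p = 0.0741 to 0.0865). Under quantile normalization the adjusted p was 0.0732 for Lgmn and 0.0712 for Lipa, and when the fit held the 6 control and 100 µg/ml libraries alone it was 0.0976 for both.

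Another 4 hydrolases had all libraries at 100 µg/ml below all control libraries without passing the test. Tpp1, a tripeptidyl peptidase, went from 97.4 to 101 FPKM in control cells to 87.3 to 88.3 FPKM (adjusted p = 0.0657 from limma). Man2b1, the acid alpha-mannosidase, went from 34.6 to 35.2 FPKM to 28.5 to 32.6 FPKM, with an adjusted p of 0.16. Asah1, acid ceramidase, and Sgsh were also lower without overlap, at differences of -0.09 and -0.21. In the other direction, the beta-glucuronidase Gusb and the sialidase Neu1 had no overlap and lay higher, at differences of 0.10 and 0.12 (adjusted p = 0.265 and 0.384 from limma). The hydrolases of glycolipids Hexa, Gla and Glb1 had differences between 0.0058 and 0.05, with overlapping libraries. Without replicate 1 at 100 µg/ml the difference was -0.01 for Hexa and -0.07 for Gla, and without replicate 3 it was 0.08 for Gla. Summed over this class, FPKM was 1517 ± 11.6 for control, 1501 ± 9.47 for 10 µg/ml and 1403 ± 37.4 for 100 µg/ml (mean ± SD, n = 3 each), without overlap between 100 µg/ml and control. Most of that fall lay in Lgmn (mean 433 FPKM in control and 347 at 100 µg/ml) and Lipa (131 and 105 FPKM). As a share of the FPKM of each library the groups overlapped, at 0.29%, 0.294% and 0.317% in control libraries and 0.276%, 0.292% and 0.29% at 100 µg/ml. These shares use whole sums that hold the 9 genes missing from part of the libraries. Those genes lower the shares of control replicates 1 and 2 most, so the overlap depends on whether they are counted.

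None of the 3 lumenal cofactors passed the test. Psap was at 1320, 1338 and 1333 FPKM in control libraries, 1352, 1370 and 1358 at 10 µg/ml, and 1301, 1252 and 1243 at 100 µg/ml. The 3 groups of Psap did not overlap, with the highest values at 10 µg/ml and the lowest at 100 µg/ml, but the spans were small, at a difference from control of -0.07 (adjusted p = 0.436 from limma), and under quantile normalization it was 0.03. Gm2a, the activator that presents GM2 ganglioside for degradation, was at 16.3, 16.1 and 16.8 FPKM in control libraries, 17.3, 15.01 and 16.5 at 10 µg/ml, and 15.5, 14.1 and 14.7 at 100 µg/ml. Libraries at 100 µg/ml lay below the control libraries of Gm2a, at a difference of -0.14 (adjusted p = 0.27 from limma). Progranulin, Grn, had a difference of 0.06 with overlapping libraries.

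Of the 4 membrane proteins none passed the test either. Lamp1 (ENSMUSG00000031447, chromosome 8 from 13159135 to 13175338) was at 390, 403 and 409 FPKM in control libraries, 409, 403 and 435 at 10 µg/ml, and 487, 423 and 430 at 100 µg/ml. Every library at 100 µg/ml exceeded every control library, at a difference of 0.15 (SE 0.06, unadjusted p = 0.0426 and adjusted p = 0.241 from limma), and of 0.09 without replicate 1 at 100 µg/ml. Its relative Lamp2, which also serves chaperone-mediated autophagy, lay on the other side, at 172 to 180 FPKM in control cells and 167 to 169 FPKM at 100 µg/ml, a difference of -0.07 (adjusted p = 0.426). The tetraspanin Cd63 was at 308, 287 and 255 FPKM in control libraries, 261, 259 and 292 at 10 µg/ml, and 338, 268 and 290 at 100 µg/ml, and the groups overlapped. The difference of Cd63 was 0.08, and -0.02 without replicate 1 at 100 µg/ml. The table also lists a pseudogene copy, Cd63-ps, at a mean of 217 FPKM, so the reads of Cd63 may be split between the copies and its level is uncertain. Mcoln1, the calcium channel of the lysosomal membrane, had a difference of 0.03.

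The transcription factors that act on lysosomal genes were themselves expressed and overlapped between groups. Tfe3 was the most abundant of the 3, at 53.8, 60.4 and 62.2 FPKM in control libraries, 66.1, 59.8 and 53.6 at 10 µg/ml, and 48.8, 57.3 and 59.6 at 100 µg/ml. Mitf was at 15.2, 17.5 and 15.6 FPKM in control libraries, 16.0, 16.3 and 14.5 at 10 µg/ml, and 11.9, 16.3 and 15.2 at 100 µg/ml. Tfeb was the lowest, at 5.73, 7.59 and 6.70 FPKM in control libraries, 4.87, 5.83 and 7.46 at 10 µg/ml, and 5.90, 7.08 and 4.04 at 100 µg/ml. The means of Mitf were 16.1, 15.6 and 14.5 FPKM at 0, 10 and 100 µg/ml and those of Tfeb 6.67, 6.05 and 5.67 FPKM, lower at each higher dose but with overlapping libraries, and those of Tfe3 were 58.8, 59.8 and 55.2 FPKM. The differences at 100 µg/ml were -0.09 for Tfe3, -0.16 for Mitf and -0.22 for Tfeb (adjusted p = 0.669, 0.485 and 0.576 from limma). Single libraries carried them: without replicate 1 at 100 µg/ml the difference was -0.0062 for Tfe3 and -0.03 for Mitf, and without replicate 3 it was -0.03 for Tfeb. The interval of Tfeb ran from -0.66 to 0.21, so a 1.5-fold fall of Tfeb could not be told from no change with these libraries. These values are RNA levels and do not show where the factors were in the cell. Over the 16 tested genes with CACGTG in the promoter window the median difference at 100 µg/ml was -0.00069, and over the 28 tested genes with a window but without it, it was -0.07, given here as a description.

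None of the 16 genes of the proton pump passed the test at 100 µg/ml. Their median difference was -0.04, and 6 lay above and 10 below control. In the V0 sector, Atp6v0c, which encodes the ring subunit that carries protons, was at 406, 372 and 355 FPKM in control libraries, 353, 342 and 363 at 10 µg/ml, and 418, 318 and 360 at 100 µg/ml. The groups overlapped, and the difference of -0.06 was -0.16 without replicate 1 at 100 µg/ml and 0.04 without replicate 2. Atp6v0a1, the subunit that anchors the proton channel, was at 74.9, 79.0 and 76.5 FPKM in control libraries, 76.1, 78.9 and 70.4 at 10 µg/ml, and 54.02, 70.8 and 65.8 at 100 µg/ml. Its libraries at 100 µg/ml were all below control (difference -0.28, SE 0.09, adjusted p = 0.155 from limma), with replicate 1 the lowest, and without that replicate the difference was -0.17. Atp6v0e, a small subunit, was at 210, 186 and 168 FPKM in control libraries, 174, 175 and 176 at 10 µg/ml, and 204, 150 and 145 at 100 µg/ml, a difference of -0.19 (adjusted p = 0.472 from limma). Replicate 1 at 100 µg/ml overlapped with control, the other 2 lay below every control library, and without replicate 1 the difference was -0.34 (adjusted p = 0.0571).

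In the V1 sector, Atp6v1b2, the B subunit of the ring that splits ATP, was the most abundant, at 588, 544 and 508 FPKM in control libraries, 492, 542 and 484 at 10 µg/ml, and 471, 481 and 433 at 100 µg/ml. Its libraries at 100 µg/ml lay below control and below 10 µg/ml, at a difference of -0.24 from control (SE 0.07, adjusted p = 0.125 from limma). Atp6v1e1, a stalk subunit, was at 65.7, 62.1 and 61.2 FPKM in control libraries, 62.2, 54.4 and 64.8 at 10 µg/ml, and 54.6, 45.2 and 47.8 at 100 µg/ml. Here too the libraries at 100 µg/ml were below control (difference -0.35, SE 0.09, adjusted p = 0.0741 from limma). Without replicate 1 at 100 µg/ml the adjusted p of Atp6v1e1 was 0.0281, and after the correction for GC content and length it was 0.0386. Atp6v1h, a regulatory subunit, lay on the other side, at 98.0 to 103 FPKM in control cells and 107 to 126 FPKM at 100 µg/ml, a difference of 0.20 (adjusted p = 0.156). The catalytic subunit Atp6v1a had a difference of -0.0072, with an interval from -0.12 to 0.11.

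The accessory subunits differed little. Atp6ap2, also known as the prorenin receptor, was at 212, 199 and 180 FPKM in control libraries, 185, 189 and 195 at 10 µg/ml, and 191, 199 and 182 at 100 µg/ml. Atp6ap1 was at 181, 186 and 175 FPKM in control libraries, 178, 180 and 182 at 10 µg/ml, and 164, 176 and 167 at 100 µg/ml. Both overlapped between 100 µg/ml and control, at differences of -0.05 and -0.09.

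**Figure D4:**
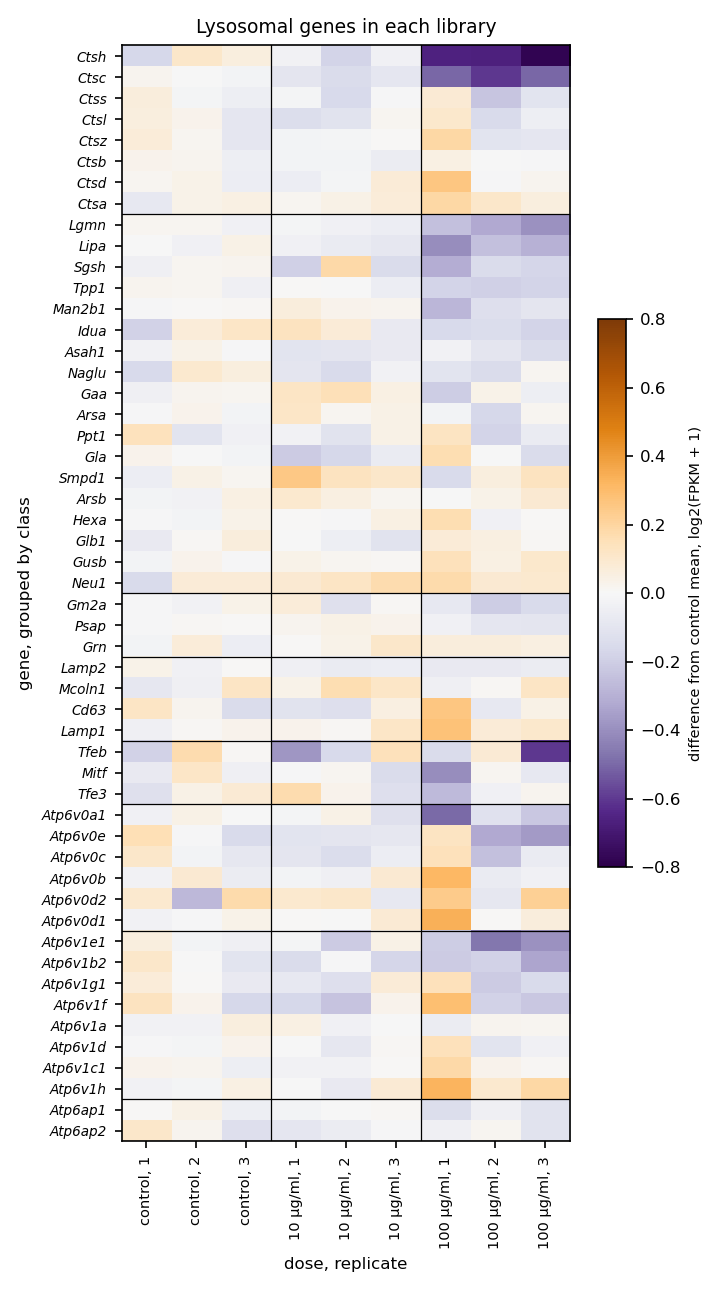
Difference of each library (columns) from the control mean on the log2(FPKM + 1) scale for the 52 genes tested (rows, grouped by class), from purple for lower to orange for higher. The rows of Ctsh, Ctsc, Lgmn and Lipa are purple in all 3 columns at 100 µg/ml, and the first of those columns holds the highest of the 3 values for 33 of 52 genes.

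At 10 µg/ml no lysosomal gene passed the test against control, and no gene of the whole table did (0 of 11161, or 0%, by limma). Without adjustment, 366 genes (3.28%) had a p under 0.05, 1.54% lower and 1.74% higher, and 1 of these was lysosomal, Ctsc, with a difference of -0.11 (SE 0.05, unadjusted p = 0.0441, adjusted p = 1). Ctsh, Lgmn and Lipa had differences of -0.08, -0.04 and -0.06. For 9 of the 52 genes (17.3%, against 10.7% of all genes tested) the libraries did not overlap, 5 higher (9.62%, against 6.14%) and 4 lower (7.69%, against 4.61%). The higher ones were Psap, Man2b1, Gaa, Smpd1 and Neu1, and the lower ones were Ctsc, Lamp2, Gla and Asah1. Psap and Man2b1 thus lay above control at 10 µg/ml and below it at 100 µg/ml in every library, and between the doses their adjusted p was 0.354 and 0.156 from limma. The median difference over the 52 genes was -0.02, and 0.02 under quantile normalization. In FPKM, 50 of the 52 intervals lay within a 1.5-fold change in either direction, and the exceptions were Tfeb and Sgsh. This comparison and that at 100 µg/ml share the control libraries.

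Between the doses, 3 lysosomal genes were lower at 100 than at 10 µg/ml and 0 were higher. They were Ctsc (difference -0.43, SE 0.05, adjusted p = 0.00989), Ctsh (-0.62, SE 0.08, adjusted p = 0.0174) and Lgmn (-0.28, SE 0.05, adjusted p = 0.0475 from limma). The 3 genes are 5.77% of the 52, where 0.636% of all genes tested were lower and 0.851% changed in either direction. Lipa had a difference of -0.25 with an adjusted p of 0.0787. These calls were also lost without some single libraries: Ctsc lost its call without replicate 1 at 10 µg/ml (adjusted p = 0.0655), and Ctsh and Lgmn lost theirs without any 1 of the 6 libraries other than replicate 1 at 100 µg/ml (adjusted p = 0.0558 to 0.108 and 0.108 to 0.2). When the fit held the 6 libraries of both doses alone, 0 of them passed, with an adjusted p of 0.0788 for Ctsc, 0.0727 for Ctsh and 0.186 for Lgmn. At an unadjusted p under 0.05 11 lysosomal genes differed (21.2%, against 14.3% of all genes tested), 1 higher (1.92%, against 6.49%) and 10 lower (19.2%, against 7.8%). Libraries did not overlap for 16 of the 52 genes (30.8%, against 19.4%), 11 lower (21.2%, against 9.99%) and 5 higher (9.62%, against 9.37%), and Gaa, the acid alpha-glucosidase, was among the lower ones (difference -0.18, adjusted p = 0.261) after lying above control at 10 µg/ml.

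A wider set of 84 other lysosomal genes, in lists of further V-ATPase subunits, hydrolases, membrane proteins, delivery factors and nutrient sensors, gave 71 that could be tested. At 100 µg/ml 2 of them fell and 0 rose against control, both hydrolases, which is 2.82% of the 71, where 1.41% of all genes tested were lower. Of these, Pla2g15, a lysosomal phospholipase, was at 17.9, 17.8 and 16.0 FPKM in control libraries, 16.9, 16.1 and 15.1 at 10 µg/ml, and 12.7, 13.1 and 11.9 at 100 µg/ml, with all libraries at 100 µg/ml the lowest (difference -0.43, SE 0.07, adjusted p = 0.0196). These calls depended on single libraries: the count of the 71 genes past the threshold was 0 without control replicate 1, control replicate 2 or replicate 3 at 100 µg/ml, 1 without control replicate 3 or replicate 2 at 100 µg/ml, and 4 without replicate 1 at 100 µg/ml. The median difference over the 71 genes was -0.02. No gene of these lists passed the test at 10 µg/ml or between the doses.

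The most abundant gene of the wider lists was Ctsk, cathepsin K, a protease best known from osteoclasts. It was at 3401, 3300 and 3101 FPKM in control libraries, 3151, 3008 and 3455 at 10 µg/ml, and 4182, 3485 and 3616 at 100 µg/ml, above every cathepsin of the main list in each library. All libraries at 100 µg/ml lay above the other 6, at a difference of 0.20 from control (SE 0.09, adjusted p = 0.255 from limma) that was 0.12 without replicate 1 at 100 µg/ml. Tcirg1, which encodes the a3 form of the V0 subunit a, was at 293, 314 and 317 FPKM in control libraries, 337, 329 and 341 at 10 µg/ml, and 373, 359 and 348 at 100 µg/ml. Its 3 groups followed the dose without overlap, but the gene did not pass the test (difference 0.23 at 100 µg/ml, adjusted p = 0.0621). Atp6v0a1, the a1 form, lay below control at 100 µg/ml, and whether the forms differed in response was not tested. Slc11a1, a metal ion transporter of phagosomes, led the membrane list with a mean of 498 FPKM, M6pr, the receptor that delivers hydrolases, led the delivery list with 138 FPKM, and Rragc, a GTPase of nutrient sensing, led its list with 107 FPKM. None of these 3 passed the test.

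Markers of the cell type were checked beside these results. Of the 11 microglia and macrophage markers in the table, 9 had a mean of at least 1 FPKM, led by Emr1 (the gene of F4/80) at 174 FPKM, while P2ry12 and Cx3cr1, which define resident microglia, were near 0 at 0.09 and 0.04 FPKM and Tmem119 was at 2.15 FPKM. The summed FPKM of the 11 markers was 778, 803 and 770 in control libraries, 774, 758 and 769 at 10 µg/ml, and 673, 666 and 700 at 100 µg/ml. The sum was lower at 100 µg/ml in all 3 libraries, and 1 of the 9 tested, Emr1, fell (199, 208 and 200 FPKM in control libraries, 117, 133 and 132 at 100 µg/ml, difference -0.67, SE 0.06, adjusted p = 0.00224 from limma). Without Emr1 the other 10 markers summed to 579, 595 and 570 FPKM in control libraries and 556, 533 and 568 at 100 µg/ml. Of the 9 markers tested, 8 had differences below 0. Csf1r, the receptor for colony stimulating factor, lay lower in every library at 100 µg/ml (116 to 128 FPKM, against 138 to 145 in control libraries), at a difference of -0.21 (adjusted p = 0.0783 from limma). So did Aif1, which encodes IBA1 (2.76 to 4.92 FPKM, against 6.22 to 7.09), at a difference of -0.65 (adjusted p = 0.0841). Cd14, a co-receptor for lipopolysaccharide and the only one of the 9 above 0, lay higher in every library at 100 µg/ml (106, 89.2 and 113 FPKM, against 76.0, 75.0 and 72.5 in control libraries), at a difference of 0.45 (SE 0.10, adjusted p = 0.0621 from limma). The part of the lower sum in the fall of Ctsc, Ctsh, Lgmn and Lipa was not tested. Lists of 5 astrocyte, 4 oligodendrocyte, 3 neuron, 3 endothelium, 3 T cell and 3 fibroblast markers held no gene with a mean of 1 FPKM or more. The 3 neuron markers, Rbfox3 among them, were listed at 0 in all 9 libraries.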

How the data were processed

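RNA of 9 BV2 libraries, 3 per condition as labelled, was analysed. Per the labels and the study's methods, the authors enriched poly(A) RNA, used TopHat for alignment and Cufflinks 2.1.1 for the deposited FPKM values, on mouse Ensembl release 77 (GRCm38), with corrections for fragment bias and for reads mapping to several places. Counts were not analysed here, and Cuffdiff was not rerun. FPKM was transformed to log2(FPKM + 1), and the 11161 genes whose mean reached 1 FPKM were fitted with limma 3.58.1 (lmFit, eBayes with trend) in R 4.3.3, the 3 groups in one fit, with Benjamini-Hochberg adjustment and a threshold of 0.05. Tables were made with Python 3.11.15 and pandas 2.3.3, and figures with matplotlib 3.10.9. Genes of the lists and promoter windows were matched by gene name. GC content and length were joined by identifier, since 63 names occur more than once. GC content and length came from GENCODE M21, which held 40122 of the identifiers. Coordinates are those of the deposited table, and promoter windows those of RefSeq. Fits were tested on simulated data. Alternatives were pseudocounts of 0.1 and 0.01, no filter or one at 5 FPKM, quantile and median-of-ratios scaling, a loess correction for GC content and length with a span of 0.5, a replicate block, eBayes without trend, only the 6 libraries compared and each library left out in turn. Values in every library are given for Lamp1, Ctsd, the 3 transcription factors, genes past the threshold, the most abundant gene of each class, the 2 largest differences of each class at 100 µg/ml and the untested gene; others are named from the same lists. The members and lists were chosen with earlier results of these data known. Some items of these lists are not reported here.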

Additional observations from a re-analysis of the deposited data

How the results depend on the processing

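Of 969 alternative values for medians, counts without overlap and those of the 52 genes given in every library, with only libraries of the comparison left out, 910 stayed on the same side of the threshold or within the spread, 21 moved, 34 lost and 4 gained a call (Atp6v1e1 3 times, Lipa 1 time), and 0 called values reversed. In each alternative, lysosomal genes that passed the test were lower, not higher. At 100 µg/ml against control, the 236 genes of the whole table became 727 under the correction for GC content and length (47.2% of them higher, against 33.5%), 106 under the replicate block, 22 with only the 6 libraries compared and 31 (without control replicate 2) to 539 (without replicate 1 at 100 µg/ml) with single libraries left out. The 4 lysosomal genes became 7 under that correction (Atp6v1e1, Man2b1 and Tpp1 added), 2 under quantile normalization (Ctsc and Ctsh), 3 under the block (Ctsc, Ctsh and Lgmn), 1 with only the 6 libraries compared (Ctsc) and 2 to 6 with single libraries left out, 6 being without replicate 1 at 100 µg/ml (Atp6v1e1 and Tpp1 added). The 2 genes of the wider lysosomal lists became 7, 1 and 0 under the correction, the block and the 6 libraries, and 0 to 4 with single libraries left out. At 10 µg/ml against control, the 0 genes became 4 without a filter, 1 with only the 6 libraries compared and 0 to 2 with single libraries left out, and lysosomal genes numbered 0 in every alternative. At 100 against 10 µg/ml, the 95 genes became 279 under the correction (35.1% higher, against 25.3%), 13 under the block, 6 with only the 6 libraries compared and 8 to 191 with single libraries left out. The 3 lysosomal genes became 4 under the correction (Lipa added), 2 without a filter, under quantile normalization or without trend (Lgmn lost, adjusted p = 0.0734 to 0.0847), 1 under the block, 0 with only the 6 libraries compared and 0 to 3 with single libraries left out, and the 0 genes of the wider lists became 2 under the correction, 1 under the correction with the block and 0 to 1 with single libraries left out. Fits on fewer libraries had fewer residual degrees of freedom; otherwise the cause was not tested. Whether replicate numbers pair the samples could not be told. Deviations of same-numbered libraries correlated at -0.088 to 0.152 and those of differently numbered ones at -0.166 to 0.143. Between control and 100 µg/ml, same-numbered libraries correlated at 0.152, 0.033 and 0.098, and differently numbered ones at -0.166 to 0.105. The block result thus holds only if the numbers mark pairs. FPKM without counts leaves the precision of single values unknown, and with 3 libraries a group, the 95% intervals reached a median of 0.17 to each side on the log2 scale.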
